A study of Mus musculus with 20 samples.

Results

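The 10 genes described here encode enzymes that build triglycerides and phospholipids in the liver: *Gpam*, *Agpat2*, *Lpin1*, *Lpin2*, *Dgat1*, *Dgat2*, *Mogat1*, *Pcyt1a*, *Chka* and *Pemt*. They were matched by symbol, as enzymes of this pathway, and all 10 were found among 55487 gene identifiers in the count table. Liver mRNA from 20 female C57BL/6J mice, 28 weeks old, was sequenced with 1 library per mouse. The mice fell into 4 groups of 5. The chow group ate chow throughout, as the lean reference. The other groups were fed a high-fat diet (HFD) from 8 weeks of age for 10 weeks and then, for 10 more weeks, HFDs of equal energy in which 50% of the protein came from fishmeal made of salmon by-products, from salmon filet or from beef. The groups carried no transgene or drug treatment, and obesity and diet went together in all HFD groups. Mouse 31 is labelled as fed salmon filet, whereas its column in the count table is named beef; it was counted as beef here, and values with it counted as salmon filet are given where that changes a call or an overlap between groups.

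Hepatocytes make triglyceride mainly by the glycerol phosphate pathway, in which fatty acids are added to glycerol-3-phosphate in turn, a phosphate is removed and a last fatty acid is attached. The monoacylglycerol pathway is a side entrance that starts from partly broken down glyceride. Both pass through diacylglycerol, which is also the backbone onto which phosphocholine is loaded to make phosphatidylcholine, the main phospholipid of membranes and of the surface of lipoproteins, and the liver can make the same lipid by methylating phosphatidylethanolamine.

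Libraries held 42526234 to 70266136 counts (median 56022032), which gave every member other than *Mogat1* at least 462 counts in every liver, whereas *Mogat1* had as few as 7. Defining hepatocyte genes were abundant in all livers, with a summed level of 91090 to 123100 CPM (counts scaled to library size) over 8 markers, and 0 of the 8 passed the test between HFD and chow (1 at an unadjusted p under 0.05). Of 8 adipocyte markers, *Lep* was at 0 in every liver and *Adipoq*, *Plin1*, *Cfd*, *Retn* and *Cidea* had mean levels under 0.05 CPM in both diets. The other 2 were *Car3* (2951 CPM with HFD and 2454 CPM with chow, log2 0.27) and *Fabp4* (8.79 and 7.46 CPM, log2 0.24), with edgeR adjusted p of 0.445 and 0.448, and their part in the results was not tested. Beef mouse 35 stood apart from the other libraries, with 84.3% of its counts on protein coding genes against 93.2% to 95.6% elsewhere. In tissue RNA, fewer cells of a type and less RNA per cell cannot be told apart.

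Promoter sequence is shown for the 4 members whose levels varied most among the HFD livers, so that the stretches upstream of genes that moved together or apart can be set side by side. Of the 10 members, 8 had at least 1 start in the RefSeq promoter table (GRCm38.p6). Each line gives the 250 bases before a start, 5′ to 3′ on the gene's strand, and capitals mark the E-box CACGTG, the nuclear receptor half-site AGGTCA and the CCAAT box, searched on both strands.
*Lpin1*, chr12:16610967-16611216, minus strand: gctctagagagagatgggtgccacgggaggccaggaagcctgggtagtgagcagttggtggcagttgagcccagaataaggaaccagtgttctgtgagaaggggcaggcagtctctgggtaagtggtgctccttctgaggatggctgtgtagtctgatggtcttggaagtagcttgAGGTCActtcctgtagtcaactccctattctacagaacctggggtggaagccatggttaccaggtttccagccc
*Lpin2*, chr17:71183282-71183531, plus strand: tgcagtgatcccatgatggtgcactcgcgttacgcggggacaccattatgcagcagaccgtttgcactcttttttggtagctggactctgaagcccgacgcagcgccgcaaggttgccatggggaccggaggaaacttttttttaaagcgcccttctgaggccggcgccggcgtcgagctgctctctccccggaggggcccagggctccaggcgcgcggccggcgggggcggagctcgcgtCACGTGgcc
*Chka*, chr19:3851523-3851772, plus strand: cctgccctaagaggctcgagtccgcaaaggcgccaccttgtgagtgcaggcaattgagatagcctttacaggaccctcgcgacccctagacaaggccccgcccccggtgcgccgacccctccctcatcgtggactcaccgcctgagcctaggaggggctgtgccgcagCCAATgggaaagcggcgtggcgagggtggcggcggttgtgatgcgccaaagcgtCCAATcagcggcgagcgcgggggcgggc
*Mogat1*, chr1:78510810-78511059, plus strand: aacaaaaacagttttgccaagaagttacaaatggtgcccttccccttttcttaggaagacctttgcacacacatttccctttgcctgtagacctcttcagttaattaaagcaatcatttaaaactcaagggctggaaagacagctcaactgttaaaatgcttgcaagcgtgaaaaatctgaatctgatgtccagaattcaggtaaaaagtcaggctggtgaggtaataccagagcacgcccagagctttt

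The *Lpin1* stretch held AGGTCA from base 74 before the start, a sequence present in 14.0% of all 32851 promoter windows of this length. *Lpin2* has 3 starts in the table, of which the first is shown. That window had CACGTG from base 9 before the start, which 6.02% of windows held, while the other 2 *Lpin2* windows had no CACGTG and 1 of them, not shown, had CCAAT 3 times. *Chka* had CCAAT from bases 82 and 28 before its start, a motif found in 33.8% of windows, and the *Mogat1* window held none of the motifs. These are matches of letters, not measured binding sites.

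The members covered a wide range of levels. In TPM, the same kind of share after correction for gene length, the chow order ran from *Pemt* (341 ± 49.7 TPM, SD, n = 5) through *Dgat2* (193 ± 36.8), *Agpat2* (141 ± 12.2) and *Gpam* (96.8 ± 14.5) to a lower tier of *Lpin2* (32.7 ± 9.37), *Pcyt1a* (30.2 ± 2.42) and *Chka* (26.6 ± 3.08). *Lpin1* (12.8 ± 5.30 TPM) and *Dgat1* (9.95 ± 0.580) followed, and *Mogat1* came last at 0.615 ± 0.453 TPM. The ranges of *Dgat2* and *Agpat2*, of *Lpin2*, *Pcyt1a* and *Chka*, and of *Lpin1* and *Dgat1* overlapped, so these neighbours were not separated. In the 15 HFD livers the order differed at 1 place: *Lpin1* (23.3 ± 13.5 TPM) stood above *Chka* (14.5 ± 8.53 TPM), again with overlapping ranges. The highest level of *Dgat1* in any liver, 11.2 TPM, was thus far below the lowest of *Dgat2*, 131 TPM, although both enzymes perform the same last step.

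The spread between livers of a group differed by gene. The coefficient of variation of CPM in the HFD groups was 5.14% to 13.4% for *Pcyt1a* and 5.80% to 22.6% for *Dgat1*. For *Lpin1* it was 45.1% to 75.3% and for *Chka* 44.9% to 74.3%, while *Chka* varied by 12.2% among chow livers. The plot of CPM by mouse shows these wide and narrow genes side by side.

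**Figure D1:**
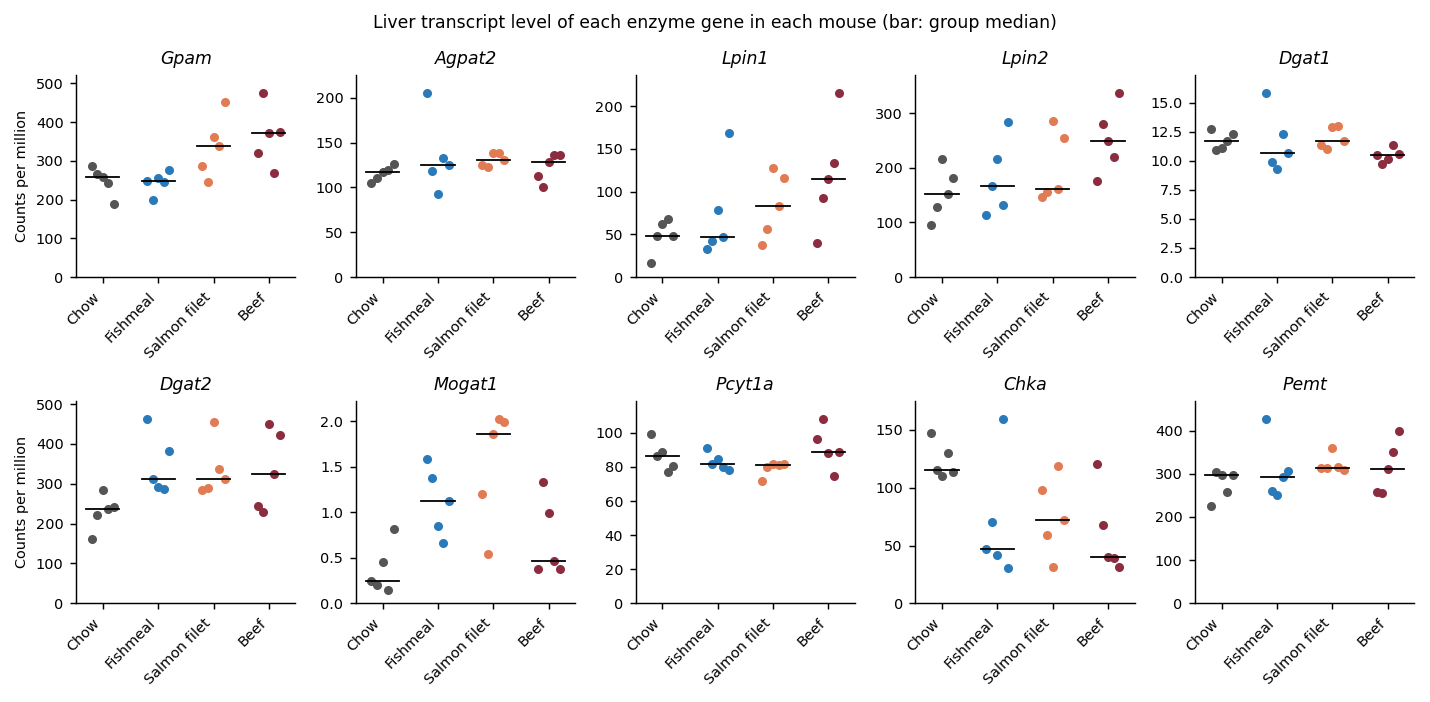
CPM (vertical axis, linear and from 0) of the 10 enzyme genes, with 1 panel per gene, 1 point per mouse and a bar at each group's median; the horizontal axis gives the 4 diet groups of 5 mice. *Mogat1* lies between 0.149 and 0.822 CPM in chow livers and between 0.380 and 2.02 CPM in HFD livers. Among HFD livers *Chka* spreads from 30.8 to 159 CPM, while *Pcyt1a* stays in a narrow band from 72.0 to 108 CPM.

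The comparison of all 15 HFD livers with the 5 chow livers asks how an obesogenic diet changes the pathway. *Mogat1* and *Dgat2*, each acting on the way to triglyceride, were higher with HFD, and none of the 10 members was called lower. This is 2 of 10 members called at an adjusted p under 0.05 (edgeR quasi-likelihood test, adjusted over all genes), where 9.75% of the 17120 genes tested were called. The median log2 fold change was 0.26 over the 10 members and 0.00 over all genes, and 4 members had an unadjusted p under 0.05, against 24.4% of all genes. The members were chosen with earlier results of these data known, so setting them beside all genes is a description only. For every member the HFD and chow ranges overlapped. Of 8 T and B cell markers, 5 were lower with HFD, and their summed level was 6.63 to 13.7 CPM in chow and 2.81 to 6.88 CPM in HFD livers; 1 of 5 red blood cell markers was higher, and 1 of 6 cholangiocyte and 1 of 6 endothelial markers were lower. The part of these cells in the members' values was not tested.

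*Gpam* encodes the mitochondrial enzyme that puts the first fatty acid on glycerol-3-phosphate, the committing step of the pathway (chr19:55067268-55127238, minus strand, GRCm38). Its level was 189 to 288 CPM in chow livers (median 258) and 199 to 476 CPM in HFD livers (median 286). The ranges thus overlapped, 11 of 15 HFD livers were above the chow mean, and the log2 fold change was 0.34 ± 0.17 (SE) with an edgeR adjusted p of 0.213. *Agpat2*, which adds the next fatty acid to make phosphatidic acid (chr2:26593057-26604417, minus strand), had 105 to 126 CPM in chow and 92.3 to 206 CPM in HFD livers. Its log2 fold change was 0.16 ± 0.12 (SE, edgeR adjusted p = 0.427), and the single high value belonged to fishmeal mouse 12.

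The lipins remove the phosphate from phosphatidic acid to give diacylglycerol, and *Lpin1* also acts as a transcriptional coactivator in liver. *Lpin1* (chr12:16535669-16610966, minus strand) had 16.6, 47.8, 61.9, 68.0 and 48.6 CPM in chow mice 1, 2, 5, 7 and 10. Over the HFD livers its lowest, median and highest levels were 33.3, 83.2 and 216 CPM. The highest HFD livers exceeded every chow liver while the lowest fell inside the chow range. The log2 fold change was 0.93 ± 0.40 (SE), with an unadjusted p under 0.05 but an edgeR adjusted p of 0.154, and 10 of 15 HFD livers were above the chow mean. *Lpin2* (chr17:71182560-71249817, plus strand) shifted less, from 94.9 to 217 CPM in chow and from 114 to 337 CPM in HFD livers, with a log2 fold change of 0.45 ± 0.22 (SE, edgeR adjusted p = 0.219).

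*Dgat1* and *Dgat2* encode unrelated enzymes that attach the last fatty acid. *Dgat2* (chr7:99153658-99182719, minus strand) had 163, 221, 285, 237 and 241 CPM in chow mice 1, 2, 5, 7 and 10. With fishmeal it had 462, 312, 292, 287 and 381 CPM in mice 12, 13, 14, 16 and 20. Salmon filet mice 22, 23, 25, 26 and 27 had 285, 289, 455, 338 and 312 CPM, and beef mice 31, 32, 35, 39 and 40 had 244, 230.3, 449.7, 324 and 422 CPM. All 15 HFD livers were above the chow mean of 229 CPM, and only beef mice 31 and 32 fell inside the chow range. The level was 1.48-fold higher with HFD (log2 0.56 ± 0.16, SE, edgeR adjusted p = 0.0259). *Dgat1* (chr15:76502015-76511953, minus strand) had 10.9 to 12.7 CPM in chow and 9.30 to 15.8 CPM in HFD livers, and its log2 fold change of -0.05 had an interval of 2 SE either side from -0.24 to 0.14.

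*Mogat1* encodes an acyltransferase that makes diacylglycerol from monoacylglycerol and is known from fatty liver in obese mice (chr1:78510991-78538173, plus strand). Chow mice 1, 2, 5, 7 and 10 had 16, 12, 26, 7 and 47 counts, which is 0.244, 0.197, 0.453, 0.149 and 0.822 CPM. Fishmeal mice 12, 13, 14, 16 and 20 had 1.58, 1.38, 0.845, 0.665 and 1.124 CPM. Salmon filet mice 22, 23, 25, 26 and 27 had 1.201, 0.544, 1.87, 2.02 and 1.99 CPM, and beef mice 31, 32, 35, 39 and 40 had 0.380, 1.34, 0.988, 0.464 and 0.380 CPM. Every HFD liver was above the chow mean of 0.373 CPM, but 3 of the 5 beef livers lay close to it and chow mouse 10 was above several HFD livers. The fitted level was 2.99-fold higher with HFD (log2 1.58 ± 0.44, SE, edgeR adjusted p = 0.0246), the largest log2 fold change among the 10 members, on the smallest counts. Exons of *Mogat1* share 200 bases (12.8% of its exonic sequence) with *BC035947* on the other strand, and the strand setting of the counting is not given in the sources used here.

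Both calls depended on the chow livers. Without chow mouse 1 the adjusted p was 0.0834 for *Mogat1* and 0.107 for *Dgat2*, without mouse 2 it was 0.0796 and 0.0672, and without mouse 7 it was 0.0827 and 0.0592, so that 0 of 10 members were called in each case. In those fits the log2 fold change was 1.389 to 1.454 for *Mogat1* and 0.46 to 0.57 for *Dgat2*, and the share of all genes called fell as well, to between 5.70% and 6.19%. Each of the other 17 livers could be left out with both genes still called, and without fishmeal mouse 16 *Chka* was called as well.

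In the choline branch, *Chka* encodes choline kinase alpha, which phosphorylates choline as the entry step of phosphatidylcholine synthesis (chr19:3851773-3894369, plus strand). Chow mice 1, 2, 5, 7 and 10 had 147, 116, 110.5, 129.8 and 114 CPM. Fishmeal mice 12, 13, 14, 16 and 20 had 47.4, 70.4, 41.8, 159 and 30.8 CPM. Salmon filet mice 22, 23, 25, 26 and 27 had 98.0, 58.9, 31.1, 118 and 71.9 CPM, and beef mice 31, 32, 35, 39 and 40 had 121, 68.1, 40.3, 39.1 and 31.6 CPM. Of the 15 HFD livers 14 were under the chow mean, and only mice 16, 26 and 31 reached the chow range. The log2 fold change was -0.85 ± 0.31 (SE), with an unadjusted p of 0.0118 and an edgeR adjusted p of 0.0859; without fishmeal mouse 16 it was -0.99 with an adjusted p of 0.0232. Part of the *Chka* transcript, at most 195 bases at a stretch, resembles 410 other genes at 90% identity or more.

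*Pcyt1a*, the rate-limiting enzyme of the same branch (chr16:32430921-32475070, plus strand), had 77.2 to 99.4 CPM in chow and 72.0 to 108 CPM in HFD livers. Its log2 fold change of -0.03 had an interval from -0.19 to 0.13, the narrowest of the members, and 567 of its exonic bases lie opposite *Slc51a* exons. *Pemt*, which makes phosphatidylcholine by methylation and is typical of liver (chr11:59970614-60046489, minus strand), had 225 to 303 CPM in chow and 250.1 to 426 CPM in HFD livers. The log2 fold change of *Pemt* was 0.19 ± 0.11 (SE, edgeR adjusted p = 0.325).

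Each HFD group was also compared with the same 5 chow livers, so these comparisons share their controls. With fishmeal, 0 of 10 members were called by edgeR, where 3.38% of 16471 genes were. An unadjusted p under 0.05 was reached by 3 members, against 16.9% of all genes. DESeq2 called 2, *Dgat2* and *Mogat1*, where it called 6.32% of all genes. With salmon filet, 1 of 10 was called, *Mogat1*, where 4.42% of 16475 genes were. Here 6 members had an unadjusted p under 0.05, against 23.8% of all genes. DESeq2 called *Dgat2* as well, where it called 9.92% of all genes. With beef, 0 of 10 were called by edgeR, where 3.05% of 16339 genes were. There 5 members had an unadjusted p under 0.05, against 18.4% of all genes. DESeq2 called 3, *Gpam*, *Lpin2* and *Chka*, where it called 6.45% of all genes.

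*Mogat1* had log2 fold changes against chow of 1.57 ± 0.42 (SE, edgeR adjusted p = 0.0657) in the fishmeal group, 2.03 ± 0.47 (0.0339) in the salmon filet group and 0.91 ± 0.50 (0.360) in the beef group. The salmon filet call was kept in 2 of 10 fits that left out a mouse, those without chow mouse 10 or salmon filet mouse 23, and the adjusted p without a mouse ran from 0.0152 to 0.0866. With mouse 31 counted as labelled it was 0.0599, for a log2 fold change of 1.84. Without chow mouse 10 the fishmeal difference was 2.08 with an adjusted p of 0.0122.

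*Dgat2* differed from chow by nearly the same amount in every HFD group, with log2 fold changes of 0.59, 0.56 and 0.54 for fishmeal, salmon filet and beef and edgeR adjusted p of 0.0806, 0.0686 and 0.184. The fishmeal and salmon filet livers did not overlap the chow livers, although the lowest salmon filet value and the highest chow value both rounded to 285 CPM. For salmon filet this holds only with mouse 31 counted as beef, since its 244 CPM lies inside the chow range, and with that mouse as labelled the log2 fold change was 0.49 (adjusted p = 0.104 by edgeR). *Pemt* also did not overlap between salmon filet (309 to 360.0 CPM) and chow (225 to 303 CPM), with a log2 fold change of 0.23 and an adjusted p of 0.188. Mouse 31, at 257 CPM, ends that separation too if counted as labelled (log2 0.18, edgeR adjusted p = 0.342). The share of all genes separated in this way is not given here, so the separations of *Dgat2* and *Pemt* only describe these livers.

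*Lpin1* and *Lpin2* were furthest from chow with beef, where the log2 fold changes were 1.29 ± 0.42 (SE, edgeR adjusted p = 0.120) and 0.70 ± 0.22 (0.114), and nearer with fishmeal, at 0.60 ± 0.45 and 0.23 ± 0.27. Counting mouse 31 as labelled moved the beef values to 1.51 (edgeR adjusted p = 0.0501) for *Lpin1* and 0.80 (0.0807) for *Lpin2*. *Chka* differed from chow by -0.83, -0.69 and -1.04 on the log2 scale in the fishmeal, salmon filet and beef groups, and edgeR called none of these (adjusted p 0.259, 0.152 and 0.0942). Without fishmeal mouse 16 the fishmeal value was -1.37 with an adjusted p of 0.00519. Without mouse 31 the beef value was -1.47 with an adjusted p of 0.00531, which is also the value with that mouse counted as labelled. The plot of differences from chow shows the wide intervals of these genes.

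**Figure D2:**
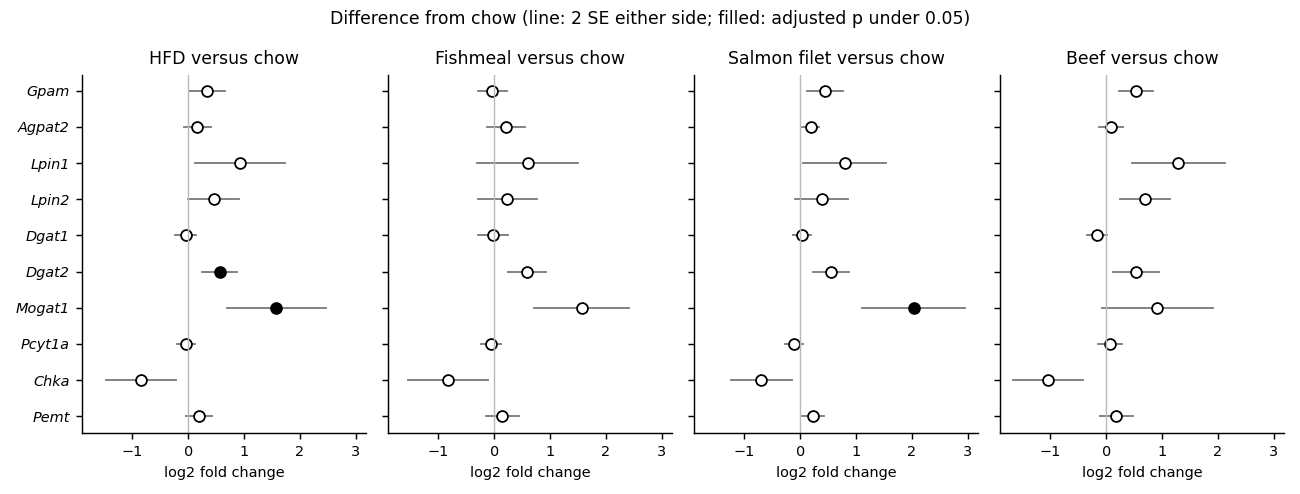
log2 fold change against chow (horizontal axis) of the 10 enzyme genes (vertical axis) for all HFD livers and for each HFD group; points are edgeR estimates, lines reach 2 SE either side, and filled points have an adjusted p under 0.05. Filled points are *Dgat2* and *Mogat1* for all HFD livers and *Mogat1* for salmon filet, whereas *Chka* lies left of 0 in every panel.

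The HFD groups, named by their protein source, were compared with each other. In the paper, these diets also differ in cholesterol, added soybean oil and fatty acid content. The parts of protein source and of these other contents cannot be told apart here. By edgeR, 0 of 10 members were called between fishmeal and salmon filet, where 0.17% of 16494 genes were called, and 1 member had an unadjusted p under 0.05. Between fishmeal and beef 0 of 10 were called, where 0.0245% of 16304 genes were, again with 1 member at an unadjusted p under 0.05. Between salmon filet and beef 0 of 10 were called, where 0% of 16212 genes were, and 2 had an unadjusted p under 0.05. Between fishmeal and the other HFD groups together 0 of 10 were called, where 0.155% of 16795 genes were, and 1 had an unadjusted p under 0.05. Over all genes, the shares at an unadjusted p under 0.05 were 5.16%, 2.59%, 4.91% and 4.03%, in the order given. DESeq2 called 0 members in each of these comparisons.

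*Gpam* was the member at an unadjusted p under 0.05 in each comparison with fishmeal. Fishmeal mice 12, 13, 14, 16 and 20 had 248, 199, 256, 245 and 276 CPM. Salmon filet mice 22, 23, 25, 26 and 27 had 286, 244, 361, 337 and 453 CPM, and beef mice 31, 32, 35, 39 and 40 had 320.2, 476, 372, 268 and 376 CPM. The fishmeal livers lay in the chow range, and all 5 were under the mean of either other HFD group, with overlap at salmon filet mouse 23 and beef mouse 39. The log2 difference was -0.47 ± 0.15 (SE, edgeR adjusted p = 0.759) from salmon filet, -0.57 ± 0.15 (0.848) from beef and -0.51 ± 0.14 (0.454) from both, so that none held after adjustment. Between salmon filet and beef, *Mogat1* differed by 1.11 ± 0.42 and *Dgat1* by 0.20 ± 0.09 on the log2 scale, each with an edgeR adjusted p of 0.922. With mouse 31 as labelled these were 0.76 ± 0.50 and 0.18 ± 0.10. *Pcyt1a* between fishmeal and salmon filet differed by 0.05 ± 0.08 (SE), while for *Chka* the same comparison gave -0.13 ± 0.44, which leaves large differences in either direction undetectable with 5 livers a group.

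*Lpin1*, *Lpin2*, *Dgat2* and *Chka* followed a measure of the circadian clock from liver to liver. Since liver lipid enzymes are known to cycle over the day, a clock score was made for each liver as the mean log2 CPM of *Arntl*, *Clock* and *Npas2* minus that of *Dbp*, *Per1*, *Per2*, *Per3*, *Nr1d1* and *Ciart*, genes of opposite daily phase. The score was 2.01 to 4.09 in chow livers and -3.34 to 3.36 in HFD livers, 2 of 15 of which fell in the chow range. Of 14 clock genes, 10 differed between HFD and chow, 8 higher and 2 lower, where 9.75% of all genes were called. Among them were *Dbp* (log2 4.70, edgeR adjusted p = 0.00423), *Tef* (1.80, 0.00417), *Nr1d2* (1.58, 0.00112) and *Hlf* (0.49, 0.0128). The clock genes thus differed by diet as some members did.

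The relation of members to the clock score was tested after their values had been seen, as deviations from group means over the 20 livers, with two-sided permutations within groups and p-values adjusted over the 10 members. *Chka* rose with the score, with Pearson r = 0.892 and Spearman rho = 0.926, each at an adjusted permutation p of 0.0001, for which the unadjusted p of 1e-05 is the smallest that 1e+05 permutations can give. *Lpin1* went the other way (r = -0.766, rho = -0.768, adjusted permutation p = 0.00195 and 0.00295), as did *Lpin2* (r = -0.705, rho = -0.716, adjusted permutation p = 0.0031 and 0.00437) and *Dgat2* (r = -0.619, rho = -0.597, adjusted permutation p = 0.0374 and 0.045). Without the 2 livers farthest from the median score r was 0.837 for *Chka*, -0.693 for *Lpin1*, -0.636 for *Lpin2* and -0.49 for *Dgat2*. *Mogat1* had r = -0.0337 (permutation p = 0.893), and the other 5 members did not pass the threshold for r either. How many of all genes follow the score in this way is not given here. The correlations thus describe these members and do not set them apart from other genes.

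**Figure D3:**
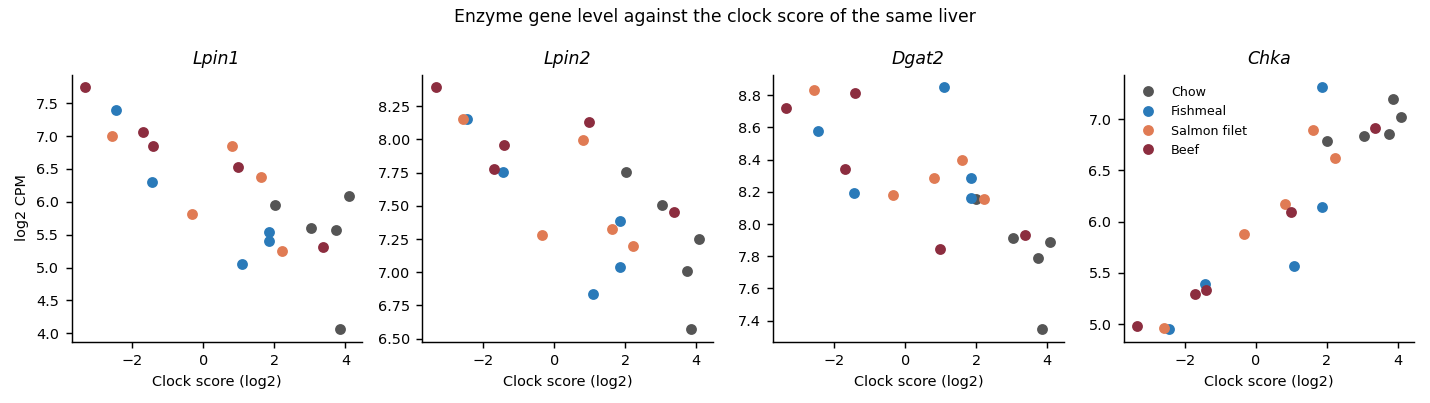
log2 CPM of *Lpin1*, *Lpin2*, *Dgat2* and *Chka* (vertical axes) against the clock score of the same liver (horizontal axis, log2 units), with 1 point per mouse coloured by diet group. Chow livers sit at scores of 2.01 to 4.09, and *Chka* climbs with the score (r = 0.892 within groups) while *Lpin1* falls (r = -0.766).

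With the clock score as a covariate, 0 of 10 members were called between HFD and chow by edgeR, where 2.11% of all genes were called. The log2 fold change became 0.12 ± 0.20 (SE) for *Chka*, -0.31 ± 0.33 for *Lpin1*, -0.11 ± 0.21 for *Lpin2* and 0.23 ± 0.17 for *Dgat2*. *Mogat1* kept its size, at 1.68 ± 0.53 (edgeR adjusted p = 0.117), and *Gpam* was 0.28 ± 0.21. As the scores of the diets hardly overlapped, diet and clock state cannot be told apart for the members that follow the score.

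Members also varied with each other. Of 45 pairs, 5 had a positive and 3 a negative correlation of within-group deviations at an adjusted permutation p under 0.05, and r ran from -0.646 to 0.866. The share of pairs of other genes that correlate in this way is not given here, so the count only describes the members. *Lpin1* and *Lpin2* were the closest pair (r = 0.866, rho = 0.904, adjusted permutation p = 0.0009 for both). *Agpat2* was correlated with *Dgat1* (r = 0.86, rho = 0.741, adjusted permutation p = 0.00506 and 0.0105), *Pemt* (r = 0.834, rho = 0.809, adjusted permutation p = 0.00292 and 0.0093) and *Dgat2* (r = 0.659, rho = 0.747, adjusted permutation p = 0.00513 and 0.0135), and *Dgat2* with *Pemt* (r = 0.79, rho = 0.794, adjusted permutation p = 0.00506 and 0.0093). *Chka* was negatively correlated with *Dgat2* (r = -0.646, rho = -0.659, adjusted permutation p = 0.0362 and 0.0489), *Lpin1* (r = -0.645, rho = -0.663, adjusted permutation p = 0.0362 and 0.0301) and *Lpin2* (r = -0.623, rho = -0.603, adjusted permutation p = 0.0362 and 0.0568).

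Several of these rested on few livers. Without the 2 livers farthest from the median of the first gene, 3 of the 8 pairs passed: *Lpin1* with *Lpin2* (r = 0.832), *Agpat2* with *Pemt* (r = 0.775) and *Dgat2* with *Pemt* (r = 0.834). The value for *Agpat2* and *Dgat1* was then 0.564. Fishmeal mouse 12, whose scaling factor was the lowest (0.868), was the highest liver for *Agpat2*, *Dgat1*, *Dgat2* and *Pemt*. On the TPM scale 5 of the 8 pairs passed, with r = 0.751 for *Agpat2* and *Dgat1*, 0.759 for *Agpat2* and *Pemt* and 0.867 for *Lpin1* and *Lpin2*. Those that did not pass were *Agpat2* with *Dgat2* (r = 0.521, adjusted permutation p = 0.107), *Lpin1* with *Chka* (-0.534, 0.143) and *Lpin2* with *Chka* (-0.44, 0.248). Without mice 12 and 35, 12 pairs passed, all 8 among them.

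**Figure D4:**
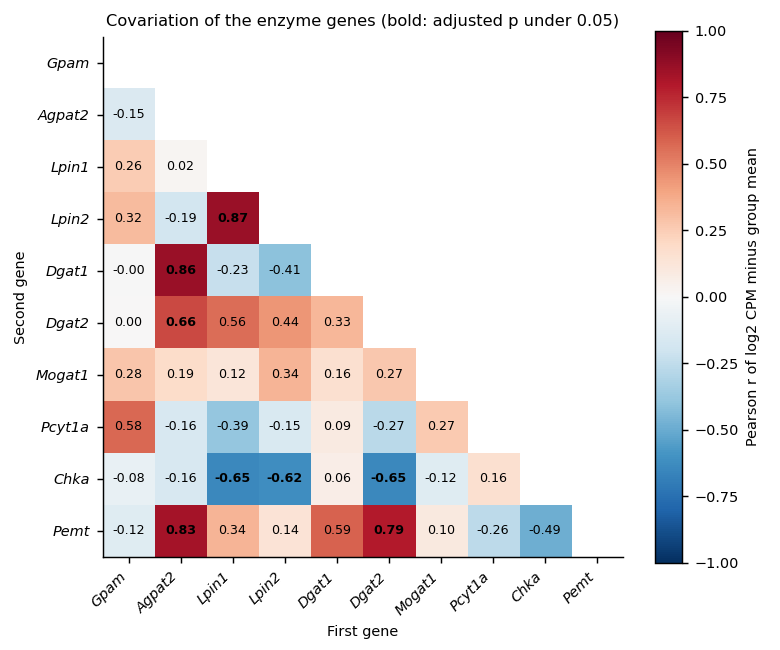
Pearson r (colour and printed value) between each pair of the 10 enzyme genes, as log2 CPM minus the group mean over 20 livers, with the first gene of a pair on the horizontal and the second on the vertical axis; bold values have an adjusted permutation p under 0.05. *Chka* is negative with *Lpin1*, *Lpin2* and *Dgat2*, and *Lpin1* with *Lpin2* has the highest value, 0.866.

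Over the protein coding genes with a mean of at least 1 CPM, about 11537 compared per member, those most like *Chka* by Pearson r of within-group deviations over the 20 livers were *Slc30a10* (0.966), *Ept1* (0.929), the older name of the ethanolamine phosphotransferase gene *Selenoi*, and *Ppp1r3c* (0.915). Those most like *Lpin1* were the member *Lpin2* (0.866), *Maff* (0.862) and *Fnip2* (0.853). For *Mogat1* they were *Clstn3* (0.89), *Cyp4a31* (0.836) and *Thbs2* (0.806). These are descriptions of the closest of many genes, and they share libraries and depth.

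Of 16 other triglyceride synthesis genes tested between HFD and chow, 2 were higher and 0 lower, where 9.75% of all genes were called, and their median log2 fold change was 0.17. These were *Gpat3*, another glycerol-3-phosphate acyltransferase (15.3 against 9.31 CPM; log2 0.72 ± 0.16, SE, edgeR adjusted p = 0.00704), and *Gpd1l*, related to the enzyme that makes glycerol-3-phosphate (41.3 against 32.5 CPM; 0.35 ± 0.09; 0.021), and all 15 HFD livers were above the chow mean for both. The number called was 1 without chow mouse 2 or 7, 4 without salmon filet mouse 23 and 0 with the clock score as a covariate. Of 26 other phospholipid synthesis genes 25 were tested and 0 called by edgeR, with 6 at an unadjusted p under 0.05, where 24.4% of all genes were, and a median of 0.01. DESeq2 called 2, *Etnk2* and *Pgs1*. Other fits called at most 2 of them, and leaving out 1 liver gave 0 to 2.

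Of 15 other triglyceride synthesis genes tested in the single groups, 2, 0 and 1 were called with fishmeal, salmon filet and beef, all higher. The shares of all genes called were 3.38%, 4.42% and 3.05%. The triglyceride genes called, named after their values were seen, were *Gpat3* (log2 0.92) and *Gpd1l* (0.36) with fishmeal and the glycerol kinase gene *Gk* (0.39) with beef. Of 25 other phospholipid genes tested, 1 was called with fishmeal, which is near the 3.38% over all genes. It was *Pgs1*, which starts cardiolipin synthesis and was lower (6.63 against 9.71 CPM, log2 -0.56, edgeR adjusted p = 0.00874). With salmon filet or beef 0 of 25 were called. An unadjusted p under 0.05 was reached by 6, 6 and 5 of the 25 with fishmeal, salmon filet and beef. Over all genes the shares were 16.9%, 23.8% and 18.4%.

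**Figure D5:**
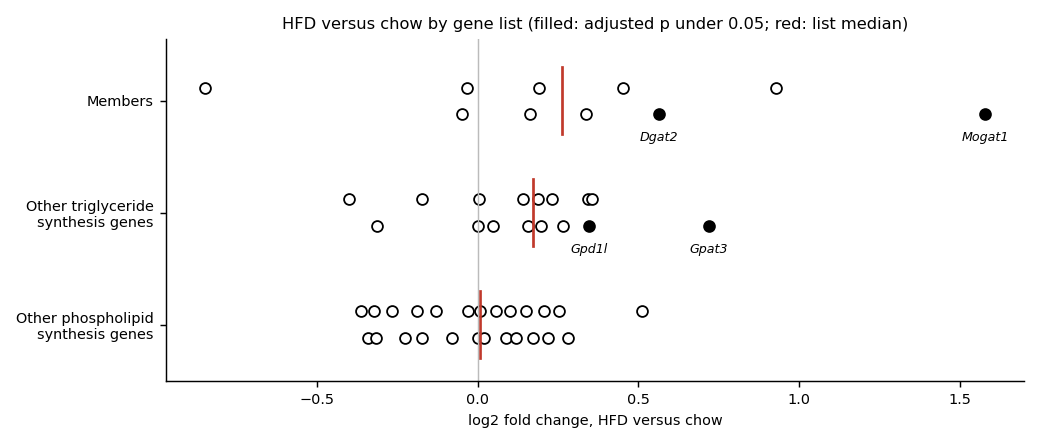
log2 fold change of HFD against chow (horizontal axis) for each tested gene of the 10 members, the 16 other triglyceride synthesis genes and the 25 other phospholipid synthesis genes (rows); filled points have an edgeR adjusted p under 0.05 and red bars are list medians. Filled points lie to the right of 0 and are named, and the medians are 0.26, 0.17 and 0.01.

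Among 10 regulators of these genes 2 were higher with HFD, where 9.75% of all genes were called. *Srebf1*, the main activator of fatty acid synthesis genes, went from 116 to 312 CPM with no overlap (log2 1.42 ± 0.18, SE, edgeR adjusted p = 2.22e-05) and was called in each single group against chow, at 1.502, 1.34 and 1.41 for fishmeal, salmon filet and beef. *Ppara*, the receptor that drives fatty acid oxidation, rose by 0.85 ± 0.24 (0.0288). Of 10 fasting response genes 1 was called, which is near the 9.75% over all genes. It was *Pdk4*, which restrains glucose oxidation, at 18.8 against 46.1 CPM (log2 -1.29, edgeR adjusted p = 0.0119). Its level was lower in all 15 HFD livers than in any chow liver. As the share of all genes separated like this is not given here, the separations of *Srebf1* and *Pdk4* only describe these livers.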

How the data were processed

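Liver libraries were made from total RNA with a strand-specific TruSeq mRNA protocol. The authors trimmed paired-end reads with BBDuk, mapped them with HISAT2 1.2.1 and deposited whole-number counts per Ensembl gene from featureCounts 1.4.6-p1; per the labels, the build is a GRCh38 name, although the samples are mouse, and positions here are from GENCODE on GRCm38. The authors also deposited TPM, scaled to gene length and library. Settings for strand and multi-mapped reads are not given in the sources used here.

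Counts were tested whole with edgeR 4.0 in R 4.3 (TMM, genes kept by filterByExpr with min.count 10, two-sided quasi-likelihood F-test, Benjamini-Hochberg over all genes tested, called under 0.05), in 8 comparisons. CPM uses TMM factors over all 20 libraries, with a prior count of 2 on the log scale. Fold changes are first group over second, SE is the log2 fold change over the root of F, and intervals span 2 SE either side. Alternatives were DESeq2 1.42, DESeq2 size factors in edgeR, no low-count filter, a single fit of the 4 groups, limma 3.58 for genes averaging 0.5 TPM or more (as log2 of TPM + 1), the clock score as a covariate, the groups as labelled and each mouse left out. Correlations used 1e+05 permutations within groups and Benjamini-Hochberg over 45 pairs. The tests were tried on simulated data.

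Within groups, all 40 pairs of libraries differed by more than counting noise (chi-square per gene 31.9 to 414), so all were kept. Each library is 1 mouse. The members and gene lists were chosen with earlier results of these data known. Genes named beyond the members are those called between HFD and chow with the smallest adjusted p (at most 6 per pathway list and 4 per list of regulators, clock and fasting genes) and the 3 most like each of *Mogat1*, *Lpin1* and *Chka*, the members with the largest log2 fold changes; others are said to be named after their values were seen, or are named as calls of an alternative, as marker genes or as overlapping genes. Promoters are from RefSeq, and transcripts were compared with blastn. *Gpat3*, *Gk* and *Selenoi* carry older symbols in the count table.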

Additional observations from a re-analysis of the deposited data

Results flagged for a closer look

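In 40 sets of 5 livers (10 members in 4 groups), the highest or lowest liver was tested for standing apart from the others, which chance does in about 1 in 20 sets, and 2 were found. *Pcyt1a* was at 72.0 CPM in salmon filet mouse 22, with the nearest of the other salmon filet livers at 80.2 CPM. *Pemt* was at 360.0 CPM in salmon filet mouse 25, with the nearest at 315 CPM. For 0 members did all livers of an HFD group lie above the chow mean while all of another lay below it.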

How the results depend on the processing

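Counted here are 29 log2 fold changes: all 10 members for HFD versus chow and, in the other comparisons, members with an unadjusted p under 0.05. Because of this choice by p, the counts do not cover every member in every comparison. Under alternatives the 29 gave 584 values, of which 543 kept their direction and side of the threshold. A further 19 lost a call, 12 gained one and 10 changed direction. The clock score as a covariate turned 9 of these: in HFD versus chow *Lpin1* (-0.31), *Lpin2* (-0.11), *Dgat1* (0.0104), *Pcyt1a* (0.0036) and *Chka* (0.12), *Chka* with fishmeal (0.13) and salmon filet (0.21), and *Lpin1* (-0.0885) and *Dgat2* (-0.0445) with beef; *Pcyt1a* was -0.0732 to 0.0219 without 1 mouse, above 0 without chow mouse 1. Of these, none was called in either fit.

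Members called between HFD and chow numbered 2, with 0 under the clock score and 0 to 3 without 1 mouse. With fishmeal the number was 0, with 2 by DESeq2, 1 without the low-count filter and 0 to 1 without 1 mouse. With salmon filet it was 1, with 2 by DESeq2, 0 by limma, under the clock score and as labelled, and 0 to 1 without 1 mouse. With beef it was 0, with 3 by DESeq2, 1 as labelled and 0 to 1 without 1 mouse. Between HFD groups it was 0 under every alternative run. Other triglyceride genes numbered 2, with 4 by DESeq2, 0 under the clock score and 1 to 4 without 1 mouse; other phospholipid genes 0, with 2 by DESeq2, 1 in the fit on all groups, 1 by limma and 0 to 2 without 1 mouse. Correlated pairs numbered 8, with 3 without the 2 farthest livers, 7 on the TPM scale (5 of the 8) and 12 without mice 12 and 35; the last 2 settings were chosen after seeing the data. The cause of these shifts was not tested.

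*Mogat1* rested on 7 to 47 counts in each of 5 chow livers. No paired analysis was possible because every mouse has its own number.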
